A study of Sus scrofa with 63 samples.

Results

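Transporters that carry peptides and amino acids across the intestinal epithelium were followed in the jejunum of fetal pigs close to term. The members were chosen by name, as every probe annotated to SLC15A1, SLC1A1, SLC1A5, SLC3A1, SLC3A2, SLC6A19, SLC7A5, SLC7A7, SLC7A8 or SLC7A9. Probes were found for 9 of these 10 genes, out of 39175 gene names on the array, and they numbered 26. No probe carried the name SLC7A5, which encodes the LAT1 light chain, and this gene was not analysed here.

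Jejunum RNA of 63 male fetuses was hybridised to one-colour Agilent pig arrays, with 1 fetus per array. The fetuses were purebred Large White (LW), purebred Meishan (MS), or reciprocal crosses named sire first, so that LWMS had an LW sire and an MS sow and MSLW had an MS sire and an LW sow. At day 90 of gestation there were 9 LW, 6 MS, 9 LWMS and 8 MSLW fetuses, and at day 110 there were 9 LW, 7 MS, 9 LWMS and 6 MSLW fetuses. Sows of both breeds were inseminated with mixed semen, so a litter held purebred and crossbred fetuses, which were collected by caesarean and chosen for a weight near their litter's mean. The sow of each fetus is not in the labels, so litter mates were counted as independent and p-values measure the spread between fetuses. Age and the sow's breed vary only between litters. The p-values for age, for MS against LW and for the sow's breed can therefore be too small.

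Dietary protein reaches the enterocyte as free amino acids and short peptides. Carriers in the brush border take these up from the lumen, and a separate set in the basolateral membrane passes amino acids on to the blood. Several of them work only as a pair, in which a heavy chain brings a transporting light chain to the membrane. In the fetus the lumen holds swallowed amniotic fluid, and the same carriers come into full use after birth with the first milk.

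All 26 probes passed the filter on dim signal, which asked that 75% or more of a group's arrays be well above background in some group, and 18 of them were well above background on all 63 arrays. SLC1A1, SLC1A5, SLC3A1 and SLC7A7 had 4 probes each, SLC3A2 and SLC7A9 had 3, SLC15A1 had 2, and SLC6A19 and SLC7A8 had 1. The brightest probe of a gene, called its lead probe and numbered 1, stands for the gene unless another is named. The first 30 bases of some probes are printed as the scanner file gives them, because the number of separate probes behind a gene decides how far they back each other up. Capitals mark bases that a probe shares with another printed probe of the same gene.
SLC1A1 probe 1: gggaagataaaagctggttcaaaattactc
SLC1A1 probe 3: gaatatgttccctgaaaatcttgtgcaggc
SLC1A1 probe 4: atatatttcataatcgtacgaaagaaccct
SLC3A1 probe 1: GATATTTCTGTAGCCTGAATGTAATGCTtt
SLC3A1 probe 2: caGATATTTCTGTAGCCTGAATGTAATGCT
SLC1A5 probe 1: cCGGGAACCCTGAGGGGAGACTGAGGGTAA
SLC1A5 probe 2: CGGGAACCCTGAGGGGAGACTGAGGGTAAa
SLC7A8 probe 1: gtggatgccttacttttgggataaatattt
The 4 SLC1A1 probes have no stretch in common and measure the gene at separate places. The paired probes of SLC3A1 and of SLC1A5 overlap, with an unbroken run of 56 bases in common for SLC3A1 and 40 for SLC1A5 over their full length, so they were not read as separate evidence. SLC7A8 rests on the single probe shown. Of the 26 probes, 16 were found in the pig RefSeq gene set, each under the same gene symbol. The SLC7A8 probe was not, nor were the lead probes of SLC1A5, SLC3A2 and SLC6A19. For these the gene name is that of the array annotation alone.

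Signals are given on the log2 scale relative to the 75th percentile of the same array, so that 0 is the level below which 75% of probes fall and a step of 1 is a doubling. Levels are compared between fetuses for a given probe, never between probes. Arrays had 51.2% to 87.6% of their probes well above background. The array of MS fetus 632 of day 110 stood apart, with a median correlation of 0.905 to the others of its group, followed by LW fetus 484 of day 90 at 0.925 and LW fetus 469 of day 110 at 0.938. Results that rest on fetus 632 are given with and without it, a choice made after seeing the data.

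Between day 90 and day 110, SLC7A9 was up-regulated, while SLC1A1 and SLC7A8 were down-regulated, on average over the 4 genotypes. SLC7A9 encodes the light chain of the apical carrier of cystine and cationic amino acids. SLC1A1 encodes the apical carrier of glutamate and aspartate, and SLC7A8 encodes LAT2, a light chain that passes neutral amino acids across the basolateral membrane. With the adjusted p limited to 0.01 and the absolute log2 difference to 0.5 or more, 4 of the 26 probes passed (15.4%), beside 13.7% of all 40515 probes tested. By direction, 2 probes rose, where 6.12% of all probes did, and 2 fell, where 7.62% did. The share that passed was thus near that of the whole array, and the median difference over the 9 lead probes was -0.19 beside -0.02 over all probes. Because the tissue is a mixture, fewer cells of a type and less RNA per cell cannot be told apart.

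For SLC7A9, the lowest, median and highest levels at day 90 were 1.74, 2.40 and 2.96 in LW, 2.29, 2.61 and 3.12 in MS, 2.15, 2.81 and 3.41 in LWMS, and 1.56, 2.21 and 2.76 in MSLW. At day 110 they were 1.22, 3.24 and 4.35 in LW, -3.04, 3.89 and 4.56 in MS, 2.71, 4.05 and 4.57 in LWMS, and 2.74, 4.00 and 4.38 in MSLW. The older fetuses lay mostly above the younger ones, with a low tail in LW and 1 very low fetus, 632, in MS. In the crosses, 8 of 9 day 110-LWMS and 5 of 6 day 110-MSLW fetuses exceeded every day 90 fetus of their genotype, against 5 of 9 in LW and 4 of 7 in MS. The averaged difference was 0.87 (95% interval 0.34 to 1.40, adjusted p = 0.0065), a 1.83-fold rise. Probe 2 rose by 0.97 (adjusted p = 0.00145), and probe 3 had a difference of 0.79 (adjusted p = 0.0208). Without fetus 632 the lead probe rose by 1.11 (0.80 to 1.43, adjusted p = 5.13e-08), and all 3 probes passed.

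SLC15A1 encodes PepT1, the proton-coupled carrier by which the enterocyte takes up di- and tripeptides. At day 90 its lowest, median and highest levels were 1.71, 2.44 and 2.61 in LW, 1.14, 2.34 and 2.69 in MS, 2.08, 2.31 and 2.45 in LWMS, and 1.31, 1.97 and 2.55 in MSLW. At day 110 they were -1.32, 2.87 and 3.52 in LW, -2.18, 3.48 and 3.97 in MS, 2.26, 3.71 and 4.13 in LWMS, and 2.01, 3.20 and 3.31 in MSLW. The medians were higher at day 110 in each genotype, but the mean fell short of that of day 90 in LW (difference -0.60, adjusted p = 0.515), and the purebred groups reached both above and far below their day 90 range. Among day 110-LW fetuses, 5 of 9 exceeded all day 90-LW fetuses and the other 4 lay below all of them. The averaged difference of 0.52 (-0.01 to 1.05, adjusted p = 0.118) did not pass. Without fetus 632 it was 0.71 (0.30 to 1.13, adjusted p = 0.00442) and passed. Both SLC15A1 probes then passed, and with them 7 of the 26 member probes, beside 14.5% of all probes.

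SLC1A1 at day 90 had lowest, median and highest levels of -3.00, -2.58 and -1.15 in LW, -1.30, -0.92 and -0.60 in MS, -1.93, -1.62 and -0.98 in LWMS, and -2.49, -1.62 and -0.76 in MSLW. At day 110 they were -3.64, -3.36 and -2.03 in LW, -4.02, -1.75 and -1.32 in MS, -2.47, -1.70 and -1.12 in LWMS, and -2.68, -2.39 and -1.85 in MSLW (5 fetuses, since the spot of 1 was an outlier on its array and was left out). All 7 day 110-MS fetuses lay below all day 90-MS fetuses, and 7 of 9 day 110-LW fetuses lay below all day 90-LW fetuses. On average SLC1A1 fell by 0.63 (interval -0.91 to -0.36, adjusted p = 0.000167), a 1.55-fold drop. The other 3 probes had differences of -0.50, 0.05 and -0.27 (adjusted p = 0.0204, 0.86 and 0.281), so the fall was called on the lead probe and on none of the dimmer ones. With the authors' own processed values the lead probe's difference was -0.47 and with normexp background correction -0.38, both under the minimum fold.

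SLC7A8 levels at day 90 (lowest, median, highest) were 1.16, 2.43 and 3.20 in LW, 1.81, 2.81 and 3.29 in MS, 2.57, 2.96 and 3.33 in LWMS, and 2.22, 2.80 and 3.78 in MSLW. At day 110 they were -0.85, 1.38 and 2.91 in LW, 1.12, 2.40 and 2.86 in MS, 1.16, 2.67 and 2.93 in LWMS, and 2.0, 2.13 and 2.58 in MSLW. Every genotype had a lower median at day 110, and the ranges overlapped. SLC7A8 fell by 0.68 on average (interval -1.01 to -0.35, adjusted p = 0.000697), a 1.60-fold drop.

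**Figure D1:**
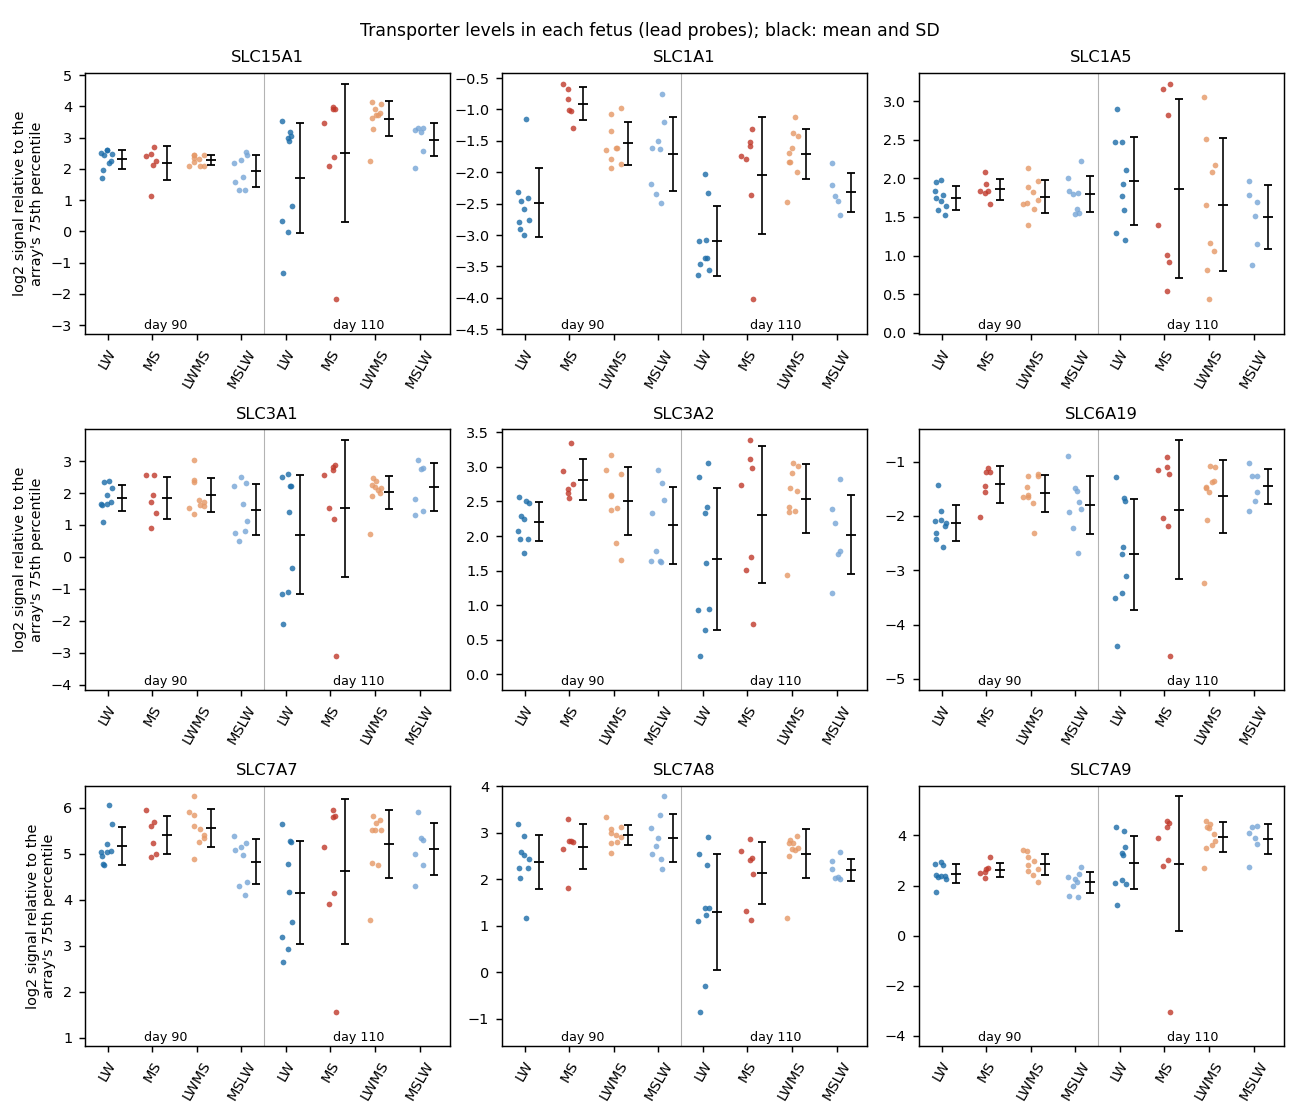
Level of the lead probe of each transporter gene in each fetus (log2 signal relative to the array's 75th percentile), by genotype and day, with points for fetuses and bars for the mean and SD. SLC7A9 and SLC15A1 have higher medians at day 110 with a low tail in LW and MS, and the lowest point of day 110-MS is fetus 632 in 7 of the 9 genes.

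The remaining apical carriers did not pass the test of age. SLC6A19 encodes B0AT1, the sodium-dependent carrier of neutral amino acids, and had a difference of -0.19 (adjusted p = 0.406). SLC3A1 encodes the heavy chain that pairs with SLC7A9, and its difference was -0.17 (adjusted p = 0.676) with fetus 632 and 0.02 without it. On the basolateral side, SLC7A7 encodes the y+LAT1 light chain, and its lead probe had a difference of -0.47 (adjusted p = 0.0608). Its other 3 probes gave -0.53, -0.66 and -0.69 (adjusted p = 0.0365, 0.0179 and 0.0182), all of the same sign and none past the threshold. SLC3A2, the 4F2hc heavy chain shared by the basolateral exchangers, gave -0.29 (adjusted p = 0.164). For SLC1A5, the exchanger ASCT2 of neutral amino acids and glutamine, the difference was -0.04 (adjusted p = 0.846).

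**Figure D2:**
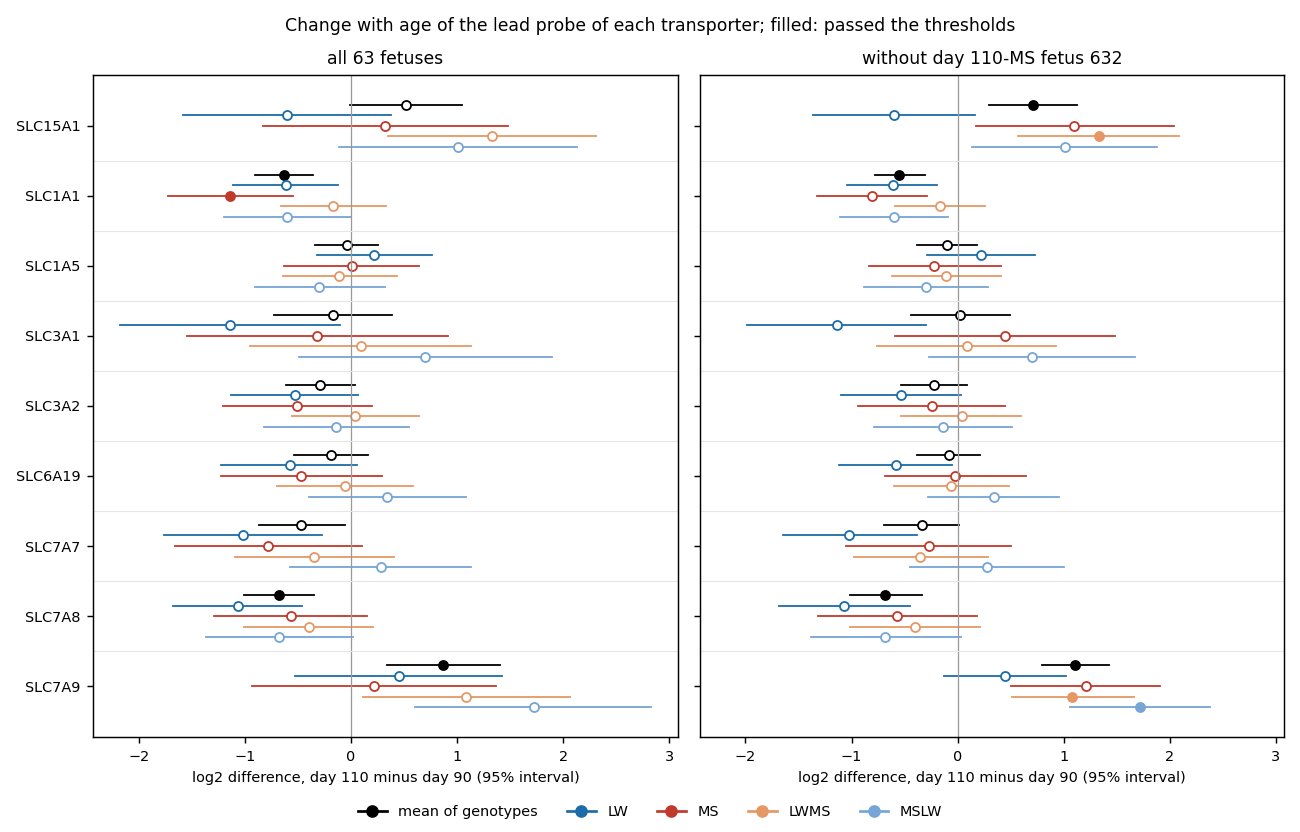
Difference between day 110 and day 90 (log2, with 95% intervals) for the lead probe of each transporter gene, averaged over genotypes and in each genotype. With all 63 fetuses, the averaged interval lies above 0 for SLC7A9 and below 0 for SLC1A1, SLC7A8 and SLC7A7. Of these, SLC7A7 did not pass after adjustment. Without fetus 632, the averaged interval of SLC7A7 (-0.69 to 0.01) includes 0 and that of SLC15A1 (0.3 to 1.13) lies above 0.

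Taken genotype by genotype, the changes with age seldom passed. In LW, 0 of 26 probes passed (lowest adjusted p 0.0142), beside 4.77% of all probes, and the lead probes had a median difference of -0.60 beside 0 over all probes. SLC7A8 had a difference of -1.07 in LW (adjusted p = 0.0142), SLC3A1 of -1.14 (adjusted p = 0.157), SLC7A7 of -1.02 (adjusted p = 0.0678) and SLC15A1 of -0.60 (adjusted p = 0.515). Without fetus 632, which is not an LW fetus but enters the shared spread, 2 probes passed in LW, beside 5.56% of all probes, namely SLC7A7 probe 3 (-1.43, adjusted p = 0.00427) and probe 4 (-1.41, adjusted p = 0.00713). In MS, 1 probe passed, beside 3.17% of all probes. This was the lead probe of SLC1A1, which fell by 1.14 (-1.73 to -0.55, adjusted p = 0.00865), and without fetus 632 the difference was -0.81 (adjusted p = 0.0401), so that 0 of 26 passed, beside 3.53% of all probes.

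In the crosses 0 of 26 probes passed, beside 9.88% of all probes in LWMS and 5.41% in MSLW. SLC15A1 had a difference of 1.33 in LWMS (adjusted p = 0.0451) and 1.01 in MSLW (adjusted p = 0.256). SLC7A9 had a difference of 1.08 in LWMS (adjusted p = 0.11) and 1.72 in MSLW (adjusted p = 0.0325). All groups share 1 estimate of the spread, so fetus 632 widened the intervals of the crosses too. Without it, 4 of 26 probes passed in LWMS (11.0% of all probes) and 3 in MSLW (6.69%), and these were all 3 SLC7A9 probes in both crosses and the lead probe of SLC15A1 in LWMS. The change with age was not shown to differ among the genotypes for any member, since the interaction passed for 0 of 26 probes (lowest adjusted p 0.425) and for 0.0222% of all probes.

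Purebred MS fetuses had more SLC1A1 signal than LW fetuses at both ages, in the levels given above, and the day 90 call held under more alternatives than the day 110 call. The lead probe was 2.99-fold higher in MS at day 90 (log2 difference 1.58, interval 1.02 to 2.13, adjusted p = 4.8e-05) and 2.07-fold higher at day 110 (1.05, 0.52 to 1.58, adjusted p = 0.00511). At day 90, 5 of 6 MS fetuses lay above all LW fetuses, and 8 of 9 LW fetuses lay below all MS fetuses, the exception being LW fetus 484. At day 110, 5 of 7 MS fetuses lay above all LW fetuses, and fetus 632 lay below them. Without fetus 632 the day 110 difference was 1.38 (adjusted p = 2.59e-05). The lead probe's call held at day 90 under all alternatives run, but at day 110 it was lost with normexp background correction (0.66, adjusted p = 0.015), with purebreds alone (adjusted p = 0.0289) and with that day fitted alone.

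The dimmer SLC1A1 probes gave differences of the same sign, whose size is uncertain because these probes lay near the floor in LW and passed the filter through the groups where they were brighter. At day 90 they were 1.04 (adjusted p = 0.075), 1.75 (adjusted p = 0.00117) and 1.60 (adjusted p = 0.00577) for probes 2 to 4. At day 110 they were 1.38 (adjusted p = 0.0052), 1.56 (adjusted p = 0.0022) and 1.05 (adjusted p = 0.0681). With normexp, probes 3 and 4 gave 0.67 (adjusted p = 0.0105) and 0.66 at day 90, and probes 2 and 3 gave 0.40 (adjusted p = 0.0436) and 0.34 (adjusted p = 0.245) at day 110. In LW these probes were well above background on 4, 2 and 3 of 9 arrays at day 90 and on 2, 1 and 2 of 9 at day 110. In MS they were well above background on all 6 arrays at day 90, and on 6, 6 and 5 of 7 at day 110.

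**Figure D3:**
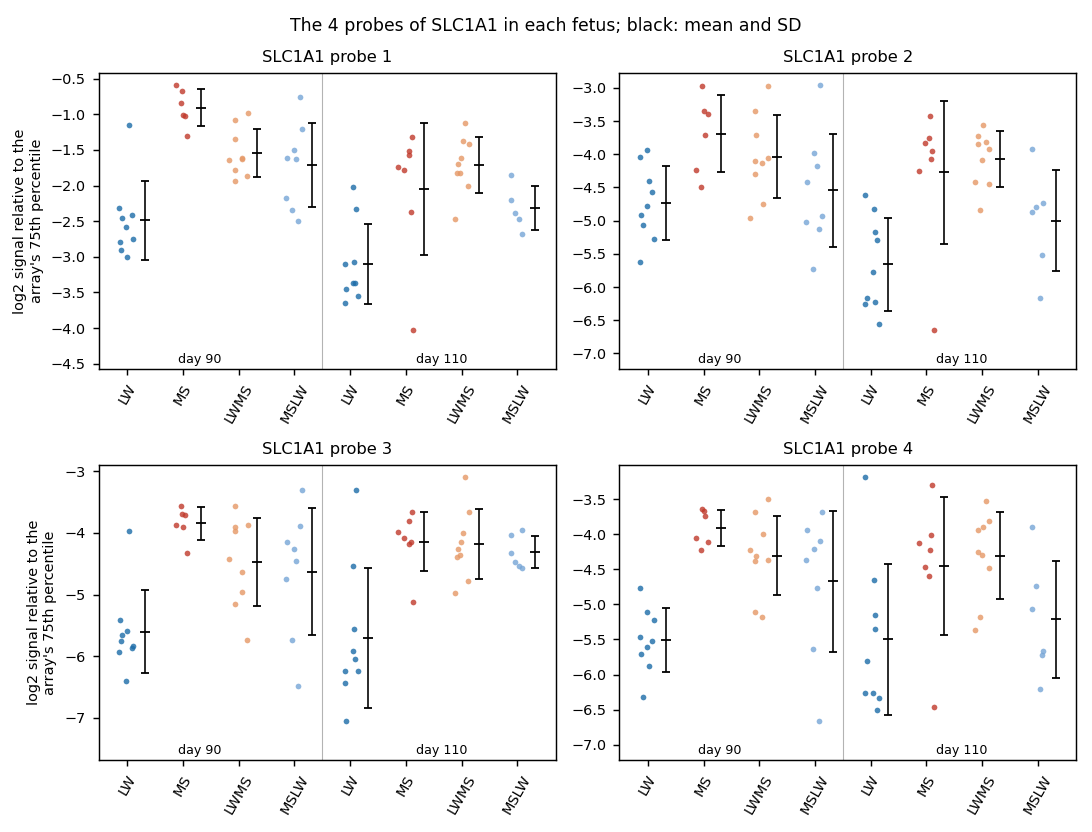
Level of the 4 SLC1A1 probes in each fetus (log2 signal relative to the array's 75th percentile), by genotype and day, with the mean and SD in black. In all 4 panels the MS mean lies above the LW mean at both ages.

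SLC1A1 alone made up the calls between the purebreds. At day 90, 3 of 26 probes passed, namely the lead probe and the dim probes 3 and 4, all higher in MS. Of all probes, 3.59% passed in either direction and 1.32% passed and were higher in MS. At day 110, 3 of 26 passed, namely the lead probe and the dim probes 2 and 3, again all higher in MS, beside 5.01% and 1.84%. The dim probes had passed the filter through the groups where they were brighter, and all these calls are of 1 gene. The counts therefore cannot be weighed against the shares of the whole array. The median over the lead probes was 0.23 at day 90 and 0.80 at day 110, beside 0.03 and 0.02 over all probes.

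Other carriers had differences that did not pass. At day 110, SLC7A8 gave 0.83 (adjusted p = 0.0966), SLC6A19 0.82 (adjusted p = 0.122), SLC3A1 0.82 (adjusted p = 0.397), SLC15A1 0.80 (adjusted p = 0.378) and SLC3A2 0.64 (adjusted p = 0.217). The other SLC3A2 probes had the opposite sign at day 110. Without fetus 632, 6 of 26 probes passed at day 110, beside 5.43% of all probes. They were the 4 SLC1A1 probes, of which all but the lead are dim, SLC6A19 at 1.27 (adjusted p = 0.00251) and the lead probe of SLC15A1 at 1.58 (adjusted p = 0.00855). Only the low MS fetus was left out here. The 4 of 9 day 110-LW fetuses that lay below all day 90-LW fetuses for SLC15A1 stayed in, which widens that difference. SLC3A1 then gave 1.59 (adjusted p = 0.0186) and did not pass.

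**Figure D4:**
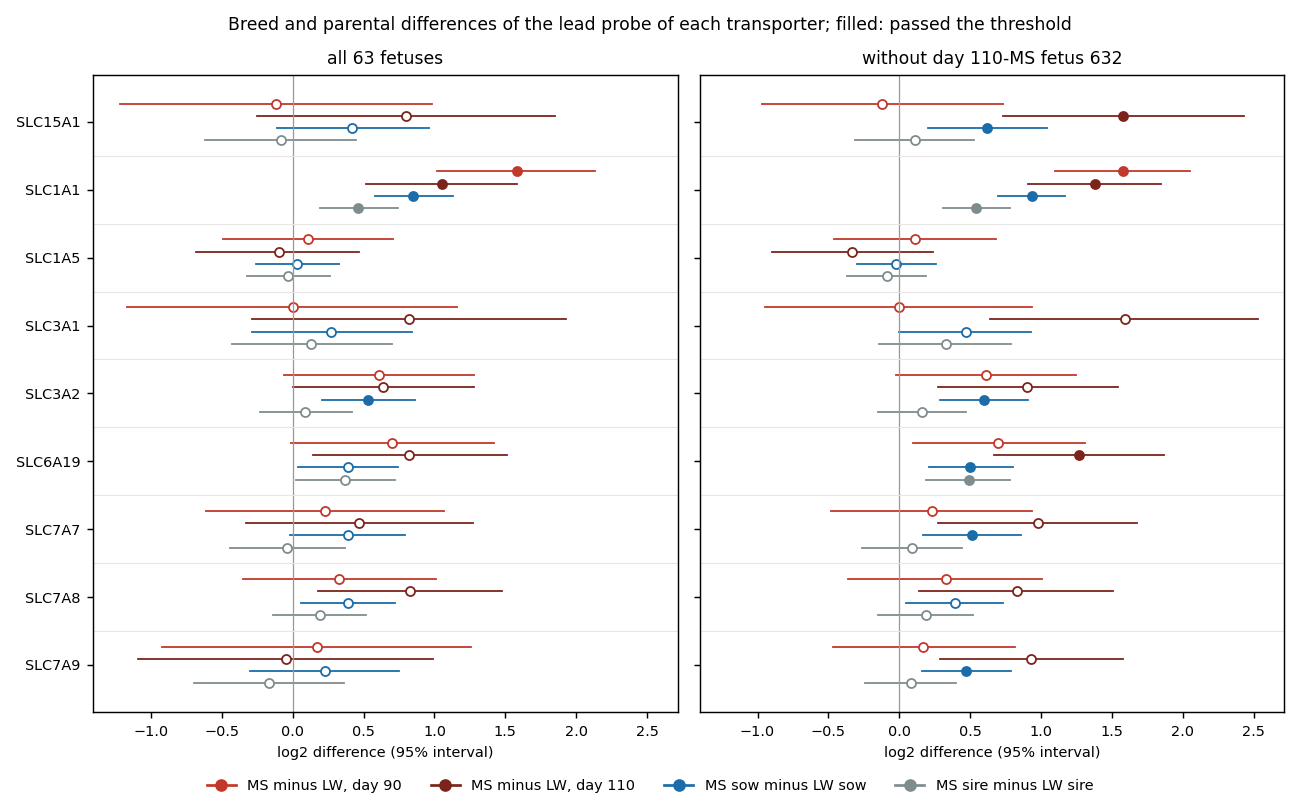
Differences by breed (log2, with 95% intervals) for the lead probe of each transporter gene, as MS minus LW at each age and as MS minus LW by breed of sow and of sire. SLC1A1 lies to the right of 0 in all of them. With all 63 fetuses, all 9 genes lie to the right of 0 for the breed of the sow. Without fetus 632, SLC1A5 lies at -0.02 for the breed of the sow.

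The breed of the sow was compared over all genotypes, as 31 fetuses of MS sows against 32 of LW sows. It varies only between sows, and litter mates were counted as independent, so the p-values by sow can be too small. At an adjusted p under 0.05, 5 of 26 probes passed (19.2%), all higher with an MS sow. They came from 2 genes, and 3 of them were dim SLC1A1 probes that passed the filter through their brighter groups. Of all probes, 15.9% passed in either direction and 7.07% passed and were higher with an MS sow. All 9 lead probes were higher with an MS sow, with a median of 0.39 beside 0.02 over all probes. The smallest difference was that of SLC1A5, at 0.03 (-0.26 to 0.33), and without fetus 632 it was -0.02. SLC1A1 was higher by 0.85 (0.58 to 1.13, adjusted p = 5.12e-06), and its probes 2 to 4 by 0.96, 0.90 and 0.98 (adjusted p = 5.98e-05, 0.000313 and 0.000184). The size for these dim probes depended on the background correction, at 0.37, 0.27 and 0.29 with normexp and 0.52, 0.50 and 0.45 in the authors' values, while all 3 still passed, and the lead probe gave 0.61 and 0.74. The lead probe of SLC3A2 was higher by 0.53 (0.21 to 0.86, adjusted p = 0.0185), whereas its other probes gave 0.18 and -0.09 and did not pass.

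For the remaining genes the sow's breed gave 0.42 for SLC15A1 (adjusted p = 0.284), 0.39 for SLC7A8 (adjusted p = 0.0969), 0.39 for SLC6A19 (adjusted p = 0.119) and 0.39 for SLC7A7 (adjusted p = 0.192). Without fetus 632 the count rose to 14 of 26 probes, beside 21.2% of all probes. The lead probes that then passed were those of SLC1A1 (0.94), SLC15A1 (0.62), SLC3A2 (0.60), SLC7A7 (0.51), SLC6A19 (0.50) and SLC7A9 (0.47). The count for the sow's breed therefore turned on 1 fetus, while the calls of SLC1A1 and SLC3A2 stood with and without it.

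By breed of the sire (27 fetuses of MS sires, 36 of LW sires), 2 of 26 probes passed, both of SLC1A1 and higher with an MS sire. Of all probes, 6.97% passed and 3.10% passed and were higher with an MS sire. Probe 3 is a dim one that passed the filter through its brighter groups. The lead probe gave 0.46 (0.19 to 0.74, adjusted p = 0.0262) and probe 3 gave 0.76 (adjusted p = 0.00467, and 0.23 with normexp, where it did not pass), while probes 2 and 4 gave 0.25 and 0.34 and did not pass. Without fetus 632, 3 probes passed, beside 7.47% of all probes, the third being SLC6A19 at 0.49 (adjusted p = 0.0286). Whether the sow's and the sire's effects differ was not tested. The paper, which fitted the sow as a random effect, reported no probe influenced by the paternal genotype and a moderate effect of the maternal one.

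The overall F test of any difference among the 8 groups passed (adjusted p under 0.01) for the 4 SLC1A1 probes (lead probe 4.37e-08) and SLC7A8 (0.00027), 5 of 26 beside 28.8% of all probes. SLC1A1 probes 2 to 4 are the dim ones that passed the filter through their brighter groups. Without fetus 632 it passed for 15 of 26, beside 31.8%. In order of mean level, SLC1A1 ran from day 110-LW at -3.10 and day 90-LW at -2.48 to day 90-MS at -0.91. Only the steps from day 110-LW to day 90-LW and from day 90-LWMS to day 90-MS, 2 of 7, exceeded the larger SD of the neighbours. For SLC15A1 1 of 7 steps did, from day 110-MSLW at 2.94 to day 110-LWMS at 3.61, and for the other 7 genes none of the 7 steps did.

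With all 63 fetuses, the levels spread more widely at day 110 than at day 90 in the purebreds. The MS spread at day 110 includes fetus 632, the lowest of its group for 7 of the 9 genes. The ratios were not computed without it, so the contrast of MS with the crosses may rest on that fetus. The SD of the lead probe was larger at day 110 for 9 of 9 genes in LW (median ratio 3.08) and 9 of 9 in MS (3.79), against 8 of 9 in LWMS (1.81) and 5 of 9 in MSLW (1.03), and these ratios were not tested. SLC3A1 gives an example, with lowest, median and highest levels of 1.1, 1.73 and 2.36 in day 90-LW and -2.09, 1.41 and 2.61 in day 110-LW. As for SLC15A1, 4 of 9 day 110-LW fetuses lay below all day 90-LW fetuses for SLC3A1. SLC7A7 ran from 4.76 to 6.05 (median 5.05) in day 90-LW and from 2.64 to 5.64 (median 4.17) in day 110-LW.

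In day 110-MS, fetus 632 was the lowest of its group for 7 of the 9 genes. Its SLC7A9 level was -3.04 where the median of the other 6 fetuses was 4.11, and its SLC3A1 level was -3.09 against 2.65. SLC15A1 stood at -2.18 against 3.69, SLC7A7 at 1.56 against 5.47, and SLC6A19 at -4.57 against -1.19. SLC1A5 went the other way, at 3.22 against 1.20, the highest of the group.

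Carriers of this kind work in enterocytes, so the markers of the epithelium were read beside them. The tissue is a mixture, and the signal of a member cannot be assigned to 1 cell type. Of 9 enterocyte markers listed, VIL1 and CDX2 had no probe, and the other 7 (FABP1, FABP2, LCT, ANPEP, APOA4, SI and EPCAM) were tested, 6 of them well above background on all arrays. Their mean level ran (lowest, median, highest) over 3.04, 3.5 and 3.77 in day 90-LW and 3.59, 3.70 and 3.97 in day 90-MS, and over 2.05, 4.35 and 5.12 in day 110-LW and 0.81, 4.98 and 5.67 in day 110-MS. It ran from 3.42 to 4.55 in day 90-LWMS, 3.23 to 3.89 in day 90-MSLW, 3.88 to 5.45 in day 110-LWMS and 3.96 to 5.23 in day 110-MSLW. The purebred groups of day 110 thus held low fetuses for the mean of the markers, but not for each marker. In day 110-LW, 4 of 9 fetuses lay below all day 90-LW fetuses for FABP2 and for APOA4, and 0 for FABP1, LCT and EPCAM. In day 110-MS, 3 of 7 lay below all day 90-MS fetuses for FABP2 and for APOA4, 1 for FABP1 and for LCT, and 0 for EPCAM. ANPEP and SI were not counted in this way. With age, 3 of the 7 markers rose, namely FABP1 by 2.55, SI by 1.67 and LCT by 1.37, and ANPEP fell by 0.59. For the breed of the sow 0 of 7 passed.

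Markers of other cells were read in the same way. With age, 1 of 4 smooth muscle markers, 1 of 3 fibroblast markers, 1 of 3 proliferation markers, 1 of 3 liver markers and the only blood marker tested fell, and 1 of 4 leukocyte markers rose. The 3 endothelial markers and the only pancreas marker tested did not pass. For the breed of the sow, 1 of the 4 leukocyte markers was higher with an MS sow, and no other marker on these lists passed. Their part in the transporter results was not tested.

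Deviations from the group mean were set against those of the enterocyte mean over the fetuses, for 9 genes. Pearson's r (Spearman's rho) was 0.93 (0.77) for SLC15A1, 0.90 (0.78) for SLC3A1, 0.90 (0.81) for SLC7A7, 0.89 (0.73) for SLC7A9, 0.82 (0.60) for SLC6A19 and 0.78 (0.71) for SLC3A2. For SLC1A1 it was 0.65 (0.49), for SLC7A8 0.51 (0.42), and for SLC1A5 it was negative, at -0.74 (-0.67). The permutation p of r was 1e-05, the smallest 100000 permutations can give, for 7 genes (adjusted over the 9 genes 1.3e-05), 2e-05 for SLC1A1 (adjusted 2.2e-05) and 0.0014 for SLC7A8 (adjusted 0.0014), and adjusted p for rho ran from 1.5e-05 to 0.0026. Leaving out the 2 arrays farthest from the median of the transporter's own level gave 0.84, 0.81, 0.84, 0.83, 0.67, 0.74, 0.44, 0.35 and -0.69 in the same order. Within day 110 alone r was 0.97, 0.96, 0.95, 0.93, 0.92, 0.85, 0.81, 0.62 and -0.77. Within day 90 it was 0.27, 0.48, 0.57, 0.40, 0.08, 0.41, 0.23, -0.09 and -0.28, with an adjusted permutation p under 0.05 for SLC3A1 (0.031) and SLC7A7 (0.0079) only. These points share arrays and scaling, the list was chosen with the data known, and the part of epithelial content in the differences by age and breed was not tested.

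**Figure D5:**
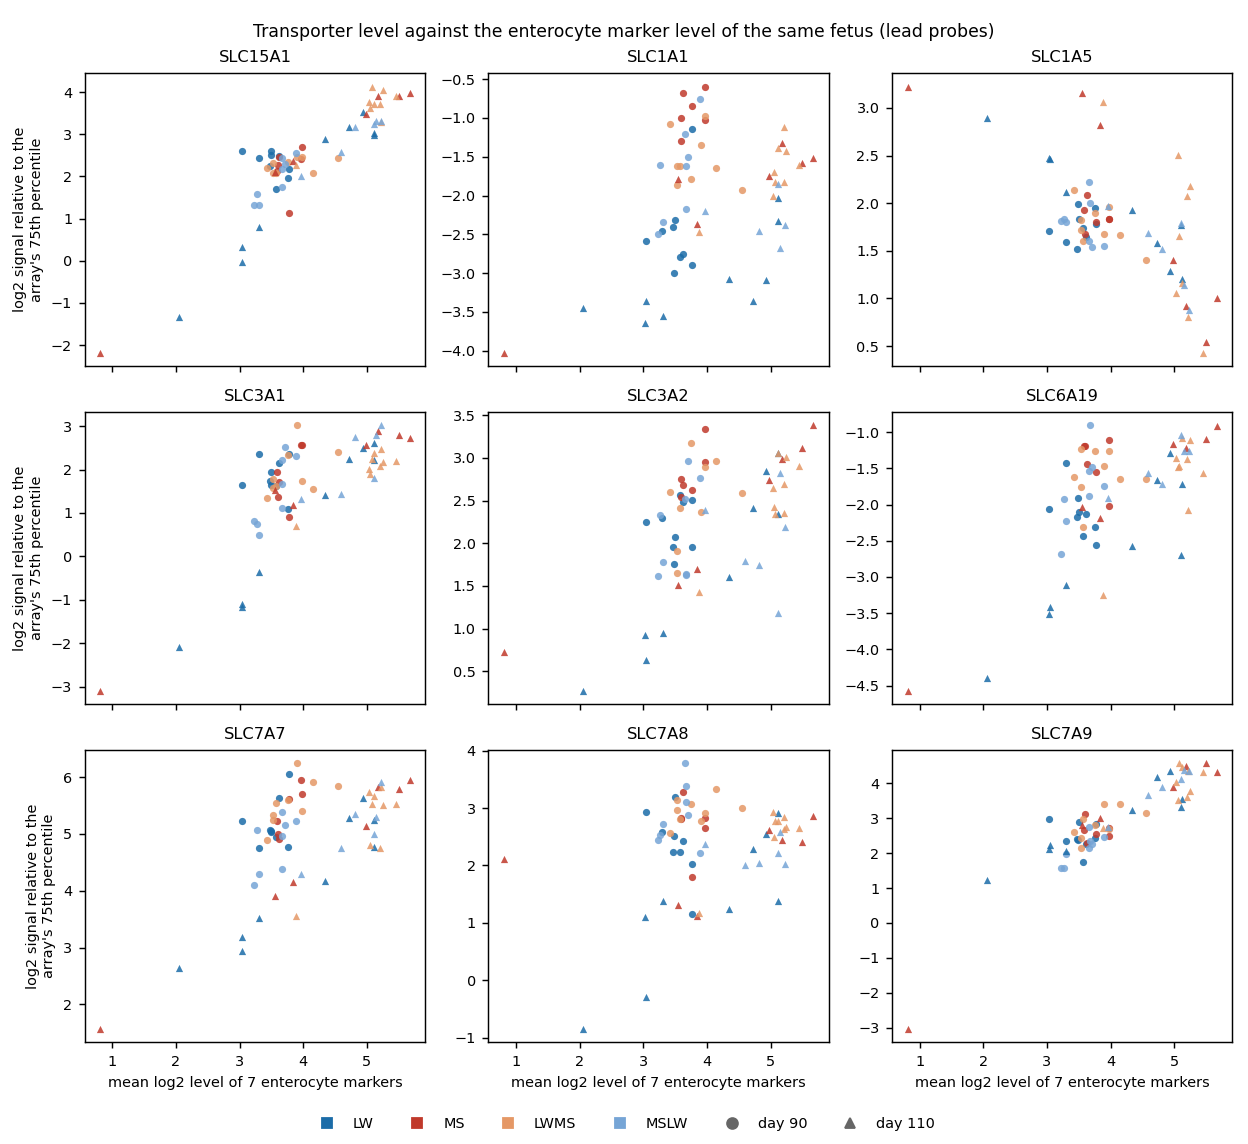
Level of each transporter's lead probe against the mean level of 7 enterocyte markers in the same fetus (both log2). Group means were not removed here. Each point is 1 fetus, with colour for genotype and point shape for day. Most genes rise with the markers at day 110, SLC1A5 falls, and the day 90 fetuses form a narrow cloud.

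Genes whose products work as a pair were compared in the same way, over 5 pairs, of which 4 are given. SLC3A1 and SLC7A9, the 2 chains of the apical cystine carrier, had r 0.84 and rho 0.70 (0.72). The value in parentheses is r without the 2 arrays farthest from the median level of the pair's first-named gene. SLC3A2 had r 0.78 and rho 0.69 (0.75) with SLC7A7, and r 0.59 and rho 0.48 (0.46) with SLC7A8. SLC6A19 had r 0.03 and rho -0.06 (0) with TMEM27, the collectrin that brings it to the membrane in the kidney. The permutation p of r was 1e-05 (adjusted over the 5 pairs 1.7e-05) for the pairs with SLC7A9 and SLC7A7, and 7e-05 (adjusted 8.7e-05) for SLC3A2 with SLC7A8, and the adjusted p of rho in these 3 pairs ran from 2.5e-05 to 0.00059. For TMEM27 the p was 0.83 for r and 0.68 for rho. At day 110 the 4 values of r were 0.91, 0.88, 0.80 and -0.08, and at day 90 they were 0.33, 0.35, -0.07 and 0.25. The adjusted permutation p was 1.2e-05 for the first 3 at day 110, whereas at day 90 it was 0.14 or more for all 4. The chains thus moved together between fetuses mainly at day 110, where SLC3A1, SLC7A9, SLC3A2, SLC7A7, SLC7A8 and SLC6A19 also moved with the mean of the enterocyte markers.

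Of 9 partner genes listed, 7 were tested. With age, SLC9A3R1, a scaffold protein of the brush border, rose by 0.80 (adjusted p = 7.08e-06). The sodium pump chain ATP1B1, which helps maintain the sodium gradient that many carriers use, had a difference of 0.22 (adjusted p = 0.00709), below the minimum fold. With an MS sow it was higher by 0.23 (adjusted p = 0.0129), though quantile normalization and the authors' values both gave 0.11 and it did not pass there.

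TMEM27 differed widely by sow. Its lowest, median and highest levels at day 90 were -3.16, -0.38 and 0.95 in LW and -3.83, -0.37 and 0.01 in MSLW, both of LW sows, and -4.17, -3.49 and -3.15 in MS and -3.90, -3.63 and -3.09 in LWMS, both of MS sows. At day 110 they were -2.94, -0.44 and 0.58 in LW, -3.34, 0.10 and 0.75 in MSLW, -4.17, -3.37 and -1.47 in MS, and -3.52, -3.38 and -1.82 in LWMS. The medians followed the sow and not the sire, with a low tail in the fetuses of LW sows. TMEM27 was 5.5-fold lower with an MS sow (log2 difference -2.46, adjusted p = 2.3e-09), and the sire's breed gave -0.02 (adjusted p = 0.987). It rests on 1 probe, well above background on 61 of 63 arrays, and litter mates were counted as independent here too. The gene lies on the X chromosome, which a male inherits from its mother. The sow's breed and the breed of that chromosome were the same in every fetus, so they cannot be told apart. The cause of the difference was not tested.

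Among 40 other amino acid and peptide transporter genes listed, 25 were on the array and 17 were tested. With age 1 rose and 4 fell, with a median of -0.08. SLC43A2, a facilitated carrier of large neutral amino acids, rose by 1.02 (adjusted p = 1.75e-05). The genes that fell were SLC7A10, the neutral amino acid exchanger Asc-1 (by 1.77, adjusted p = 4.83e-11), SLC7A4 (by 1.02, adjusted p = 1.15e-09), SLC38A1, a sodium-coupled glutamine carrier (by 0.64, adjusted p = 5.35e-05), and SLC7A14 (by 0.61, adjusted p = 0.0029). SLC38A1 and SLC7A14 fell below the minimum fold, with -0.31 and -0.32, in the authors' values. Among 9 genes of the amino acid stress response listed, 6 were tested and 1 fell, DDIT3, by 0.51 (adjusted p = 0.00114), a value at the edge of the minimum fold.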

How the data were processed

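Per the labels and methods, the authors deposited 1 scanner file per array from Agilent Feature Extraction 10.10.1.1, in which the software had corrected the linear spot intensity for background. Their deposited matrix of 39446 probes is on a log2 scale and, by comparison with the scanner values, was quantile normalized. For each array, the 75th percentile was subtracted from the log2 corrected intensity. Control spots were dropped and outlier spots became missing values, which left 2 member probes lacking 1 value each. Of 60305 probes, 40515 passed the filter and were tested. Background subtraction makes differences of dim probes uncertain in size.

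A linear model with 8 group means was fitted by limma 3.58.1 in R 4.3.3 (version 1.17.8 of data.table, jsonlite 2.0.0, and matplotlib 3.10.9 for plots). P-values are two-sided, with Benjamini-Hochberg adjustment over all probes tested. Differences are day 110 minus day 90 and MS minus LW. The study's random effect of the sow could not be fitted. Correlations used 100000 permutations within groups. The thresholds follow the study. The members, gene lists and tests were chosen with earlier results of these data known. Named genes are all members and, in each list, up to 6 with the lowest adjusted p for age plus those with a call by sow or sire. The steps were tested on simulated data. The number of arrays limits the precision. Some results of the partner list are not reported here.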

Additional observations from a re-analysis of the deposited data

Results flagged for a closer look

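In 72 combinations of gene and group, the highest or lowest fetus was compared with the gap to its nearest neighbour by Dixon's test, and 14 stood apart, where chance gives about 1 in 20. Levels are log2 signals relative to the array's 75th percentile.

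LWMS fetus 609 of day 110 stood apart at the low end of its group for 6 genes by this test. Its level was 2.26 for SLC15A1 (the next fetus at 3.28), 0.71 for SLC3A1 (1.90), 1.43 for SLC3A2 (2.34), -3.24 for SLC6A19 (-2.08), 3.56 for SLC7A7 (4.75) and 1.16 for SLC7A8 (2.50). MS fetus 632 of day 110 stood apart at the low end for 5 genes by this test, at -2.18 for SLC15A1 (2.10), -4.02 for SLC1A1 (-2.37), -3.09 for SLC3A1 (1.19), -4.57 for SLC6A19 (-2.19) and -3.04 for SLC7A9 (2.79).

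The other 3 were single genes. MS fetus 532 of day 90 was lowest for SLC15A1 at 1.14 (the next at 2.13), LWMS fetus 520 of day 90 was lowest for SLC6A19 at -2.32 (-1.76), and LW fetus 484 of day 90 was highest for SLC1A1 at -1.15 (-2.31).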

How the results depend on the processing

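The counts of member probes that passed moved most with array weights, which reweight all 63 arrays, and next when MS fetus 632 was left out. With array weights (lowest, at 0.144, for fetus 632) they were 8 of 26 for age in LW, 2 in MS (both higher at day 110, without the SLC1A1 call), 5 in LWMS, 3 in MSLW, 8 averaged, 18 between the purebreds at day 110, 20 by breed of the sow, 21 for any difference and 1 for the interaction. Without fetus 632 they were 2, 0, 4, 3, 7, 6, 14 and 15 in the same order up to any difference, and without fetuses 632, 484 and 469 they were 1 in LW, 0 in MS, 4 in LWMS, 3 in MSLW, 9 at day 110, 15 for the sow and 14 for any difference. Over the whole array, more probes also passed in each of these comparisons with array weights and without fetus 632. Without fetuses 632, 484 and 469, more passed in each listed comparison but LW, where fewer did. Whether the members gained more than the whole array was not tested. For the member probes, the authors' values gave 2 in LW and 9 for any difference, quantile normalization gave 1 in LW, and leaving out LW fetuses 484 and 469 gave 1. The SLC1A1 call for age in MS was lost, leaving 0, under quantile normalization, median centring, no filter, normexp, the ordinary linear model, purebreds alone and the slide as a block. At day 110 normexp gave 0, and 1 day alone and purebreds alone gave 1 each, while the sire count was 1 under normexp. The count between the purebreds at day 90 stayed within 1.5 times under the alternatives run. The SLC3A1 difference with age changed sign, to 0.05 with array weights and 0.02 without fetus 632. Over all alternatives run, named differences kept their direction and side of the threshold in 716 cases, lost a call in 44 and gained one in 48. The cause of these shifts was not tested.

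Within day 90 the correlations were 0.33 for SLC3A1 with SLC7A9, 0.35 for SLC3A2 with SLC7A7 and -0.07 for SLC3A2 with SLC7A8. SLC6A19 with TMEM27 gave -0.08 at day 110 and -0.06 without fetus 632. Scan date as a block was not run, since all arrays share 1 scan day, nor SLC3A2 with SLC7A5, which had no probe. Dim probes limit the dimmer SLC1A1 results. No paired analysis was possible because the fetus numbers are unique to each fetus.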

Other observations

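Over the 63 arrays and 8684 genes compared, the genes whose level was most like that of each transporter (Pearson's r, a description over arrays that share scaling) were often other products of the mature enterocyte. SLC15A1 was most like MME (0.935), a brush border peptidase, MPP1 (0.929) and FABP2 (0.920), an intracellular fatty acid binding protein. SLC3A1 was most like FABP2 (0.927), PDZK1IP1 (0.917) and CIDEC (0.916). SLC7A9 was most like RBP2 (0.930), which binds retinol in the enterocyte, SORD (0.910) and PTGR2 (0.908). SLC7A7 was most like PDZK1IP1 (0.959), DGAT2 (0.934), an enzyme of triglyceride synthesis, and CTSZ (0.929).

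SLC6A19 was most like ENPEP (0.866) and GGT1 (0.864), both peptidases of the brush border, and DAB1 (0.861). SLC3A2 was most like RARRES2 (0.825), PDZK1 (0.825) and ORMDL1 (0.816), and SLC7A8 most like BAIAP2L2 (0.856), XPNPEP2 (0.829) and SLC5A11 (0.819). SLC1A5, which ran against the mean of the enterocyte markers, was most like LINGO1 (0.896), IGSF8 (0.853) and CKAP4 (0.851). SLC1A1 had no gene as close, the first being ALDH18A1 (0.694), an enzyme that makes a proline precursor from glutamate, ITIH4 (0.688) and GRTP1 (0.685).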
